A study of Mus musculus with 6 samples.

Results

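The genes described are 10 members of the BCL2 family, taken by gene symbol from a deposited table of 21988 genes measured in mouse embryonic fibroblasts (MEFs). All 10 were in the table. They are the prosurvival genes Bcl2, Bcl2l1, Bcl2l2 and Mcl1, the BH3-only death genes Bcl2l11, Bbc3, Pmaip1 and Bid, and the effectors Bax and Bak1. The fibroblasts came from C57BL/6 embryos at 13.5 days of gestation and were harvested after 2, 8 and 14 population doublings in culture (groups PD2, PD8 and PD14), a population doubling being the log2 of cells counted over cells seeded, summed over passages. The series title places the question in senescence and its secretory phenotype. The 6 libraries were 2 for each of the 3 groups, and the labels name no treatment. Ribosomal RNA was depleted for replicate 1, and poly(A) RNA was enriched for replicate 2, so replicate and library method cannot be told apart. No label says that the libraries came from separate cultures. With library method in the model, p-values measure only how far the 2 methods disagreed about differences between groups, with information shared across genes. They do not measure a spread between cultures.

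BCL2 family proteins decide whether the outer mitochondrial membrane stays closed. Prosurvival members hold the effectors BAX and BAK in check. BH3-only members, made or activated under stress, bind the prosurvival members through a short BH3 helix or activate the effectors, which then form pores that let cytochrome c out and start the caspase cascade. Senescent fibroblasts are known for resisting apoptosis, and prosurvival BCL2 proteins are targets of drugs used to kill such cells. Bax, Bbc3 and Pmaip1 are known p53 targets.

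The sequences shown are the 250 bases before the annotated start of 3 members, Bcl2, Bid and Bax. Bcl2 had the largest fitted difference between PD14 and PD2, and Bid the smallest p in the test of any difference among the groups. Bax, a p53 target, had the highest geometric mean TPM of the members. The sequences are from RefSeq on GRCm38.p6, the mm10 build, each read 5′ to 3′ on the minus strand on which the gene lies. Of the 10 members, 9 had an entry in the RefSeq table, with 14 starts among them. Capitals mark the GC box (GGGCGG or its reverse complement), the E-box (CACGTG) and the p53 half-site. The CCAAT and TATAAA boxes, the FOXO core GTAAACA and the kappaB site were searched too, each on both strands, and are not in these 3 windows. They lay in 33.9%, 12.4%, 3.17% and 7.25% of all windows in the table.
Bcl2, chr1:106714291-106714540: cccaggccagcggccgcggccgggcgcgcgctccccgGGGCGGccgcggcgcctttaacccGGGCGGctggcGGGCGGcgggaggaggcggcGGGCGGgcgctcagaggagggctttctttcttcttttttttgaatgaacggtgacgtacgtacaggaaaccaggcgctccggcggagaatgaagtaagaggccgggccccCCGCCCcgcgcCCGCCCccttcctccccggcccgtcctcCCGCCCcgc
Bid, chr6:120916825-120917074: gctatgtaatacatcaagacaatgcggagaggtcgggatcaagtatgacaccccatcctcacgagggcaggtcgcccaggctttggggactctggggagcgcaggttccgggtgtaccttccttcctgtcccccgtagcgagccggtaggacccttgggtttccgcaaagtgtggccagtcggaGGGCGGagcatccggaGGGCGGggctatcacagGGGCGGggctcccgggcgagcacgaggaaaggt
Bax, chr7:45466899-45467148: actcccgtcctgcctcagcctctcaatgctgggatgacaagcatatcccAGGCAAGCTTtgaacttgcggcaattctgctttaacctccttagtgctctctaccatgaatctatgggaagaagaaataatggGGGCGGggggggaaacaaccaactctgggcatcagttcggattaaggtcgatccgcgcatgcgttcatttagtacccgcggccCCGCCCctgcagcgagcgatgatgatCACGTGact
The Bcl2 window held 7 GC boxes in 74.8% G and C, the Bid window 3 in 63.6% and the Bax window 2 in 54.0%. A GC box lay in 10 of the 14 member windows and in 32.7% of the 32841 windows of the same length in the table. The median G and C content of all those windows was 52.4%. The 14 member windows came from 9 genes, and 2 of the Bbc3 windows overlap. The Bax window also held 1 E-box and 1 match to the p53 half-site (marked by the capital run AGGCAAGCTT), which 6.02% and 7.13% of all windows contained. These are matches of letters, not measured binding.

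All values are TPM, transcript abundance corrected for transcript length and scaled per library, so RNA levels can be compared between genes. No protein level is among the values. The TPM summed to 937217 to 950531 per library after rRNA depletion and to 1000000 with poly(A) enrichment. The depth of the libraries is unknown, since TPM hold no read numbers. Fibroblast markers (10, all past the filter on low values) summed to 15937, 22598 and 24742 TPM at PD2, PD8 and PD14 after rRNA depletion. With poly(A) enrichment their sums were 11694, 15547 and 14528 TPM. Passing the filter does not by itself check the fibroblast label, since most markers of the other lists passed too. Leukocyte markers (13, of which 11 passed the filter; Cd3e at 0 throughout) summed to 158, 29.6 and 41.4 TPM after rRNA depletion (PD2, PD8 and PD14 in that order) and to 417, 725 and 684 TPM with poly(A) enrichment. Muscle markers summed to 50.3, 12.6 and 5.50 TPM and to 109, 33.0 and 12.5 TPM, and epithelial markers to 21.9, 9.52 and 5.21 TPM and to 37.1, 8.25 and 2.22 TPM. Endothelial markers summed to 5.10 to 24.1 TPM. Neural markers summed to 121, 153 and 181 TPM after rRNA depletion and to 223, 173 and 149 TPM with poly(A) enrichment. Of 5 neural markers tested, the fitted log2 difference between PD14 and PD2 was positive for 1 (Map2, 1.59) and negative for 4. Pecam1, Cdh5, Epcam, Cdh1, Myod1 and Snap25 stayed under 1 TPM in every library. The part of these other cell types in the values below was not tested, and in bulk RNA fewer cells of a type and less RNA per cell cannot be told apart.

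None of the 10 members passed the test in any comparison, on a background of 11.2% of all 13332 genes tested that passed for PD14 against PD2 (limma on log2(TPM + 1), Benjamini-Hochberg adjusted p below 0.05). For PD8 against PD2 the background was 0.0225% (3 genes), and for PD14 against PD8 it was 0%, so those comparisons called hardly any gene. In the test of any difference among the groups 1.46% of genes passed and again 0 members (smallest adjusted p = 0.136, for Bid, in limma). At an unadjusted p below 0.05 there were 3 members for PD14 against PD2 (background 32%), 3 for PD8 against PD2 (background 20.3%) and 1 for PD14 against PD8 (background 5.6%). The members' median difference between PD14 and PD2 was -0.03 on the log2 scale, beside 0.06 over all genes tested, and their median absolute difference was 0.20 beside 0.35. Between PD8 and PD2 the medians were 0.06 beside 0.04 and the absolute medians 0.20 beside 0.26. Between PD14 and PD8 the absolute medians stood the other way, with a median of -0.20 beside 0.01, an absolute median of 0.26 beside 0.15, and a negative fitted difference in 8 of 10 members. For the late step minus the early step the absolute median was 0.40 beside 0.24. A p that misses the threshold does not show equal levels. The standard errors and 95% intervals below come from the same fit as the p-values. They too reflect only how far the library methods disagreed, and set no bounds on a difference between cultures.

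**Figure D1:**
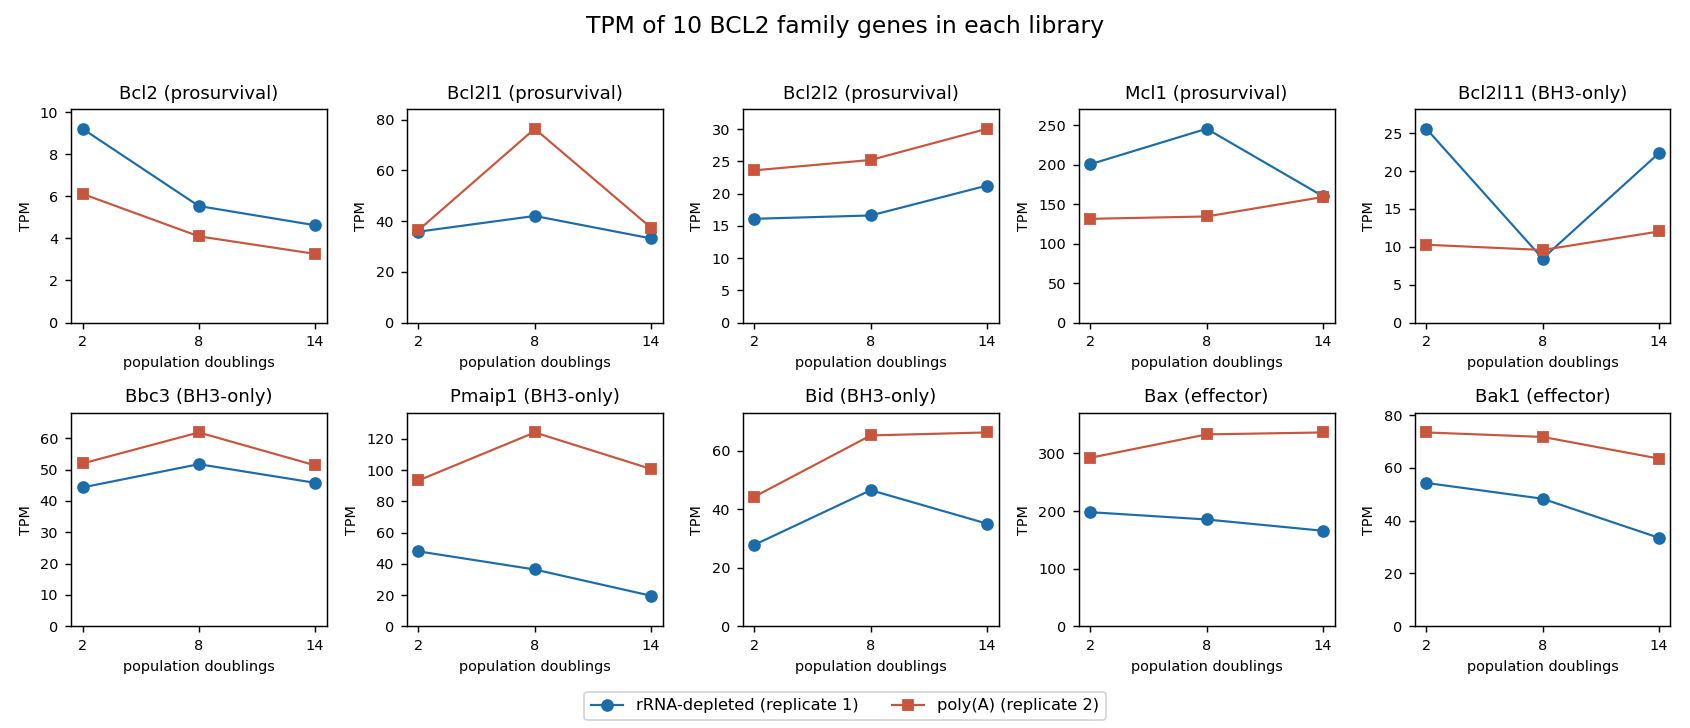
TPM of each member against population doublings (2, 8 and 14), with rRNA-depleted libraries as circles and poly(A) libraries as squares. Each point is 1 library and every axis starts at 0. Bcl2 is highest at PD2 in both methods, and Pmaip1 is at 19.5 to 48.0 TPM after rRNA depletion and at 93.4 to 124 TPM with poly(A) enrichment.

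The levels spread over a wide range. By geometric mean over the 6 libraries the order was Bax (242 TPM), Mcl1 (168 TPM), Pmaip1 (58.4 TPM), Bak1 (55.5 TPM), Bbc3 (50.8 TPM), Bid (45.4 TPM), Bcl2l1 (41.6 TPM), Bcl2l2 (21.6 TPM), Bcl2l11 (13.4 TPM) and Bcl2 (5.18 TPM). Some steps of that order held in every library: Mcl1 lay above Pmaip1, Bcl2l1 above Bcl2l2, and Bcl2l11 above Bcl2 in 6 of 6. The other neighbours changed places: Bax lay above Mcl1 in 4 of 6 libraries, Pmaip1 above Bak1 in 3 of 6, and Bak1 above Bbc3, Bbc3 above Bid, Bid above Bcl2l1 and Bcl2l2 above Bcl2l11 in 4 of 6 each. Pmaip1 lay above Bak1 only with poly(A) enrichment, and Mcl1 lay above Bax only after rRNA depletion, at PD2 and PD8. Bcl2, the gene that gives the family its name, was the least abundant member in all 6 libraries.

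Among the prosurvival genes, Bcl2 had the largest fitted difference. BCL2 is the founding member, which sits on mitochondria and the endoplasmic reticulum (gene ENSMUSG00000057329.7, mm10 chromosome 1, 106538178 to 106714274, minus strand). At PD2, PD8 and PD14 its TPM were 9.21, 5.54 and 4.62 after rRNA depletion and 6.11, 4.10 and 3.26 with poly(A) enrichment. Both PD2 libraries lay above both PD8 and both PD14 libraries, while PD8 and PD14 overlapped. The fitted difference between PD14 and PD2 was -0.80 ± 0.21 (log2(TPM + 1), standard error, n = 2 libraries a group; 95% interval -1.34 to -0.26; adjusted p = 0.0732), with -0.86 in the depletion pair and -0.74 in the enrichment pair. It was -0.56 ± 0.21 for PD8 against PD2 (adjusted p = 0.235) and -0.24 ± 0.21 for PD14 against PD8 (adjusted p = 0.968). Under quantile normalization Bcl2 passed for PD14 against PD2, at -0.98 (adjusted p = 0.0454, with 0.0454 to 0.482 over all 14 alternatives). An antisense gene, D630008O14Rik, shares 558 exonic bases with it on the other strand, and whether the poly(A) reads were counted by strand is not given in the sources used here.

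Mcl1, which encodes a short-lived prosurvival protein, had the highest TPM of that group in all 6 libraries. Its TPM were 201, 245 and 160 after rRNA depletion and 131, 134 and 159 with poly(A) enrichment at PD2, PD8 and PD14. The rRNA-depleted values were lowest at PD14, the poly(A) values were highest there, and the groups overlapped. The fitted difference between PD14 and PD2 was -0.03 ± 0.22 (95% interval -0.59 to 0.54, adjusted p = 0.949), made of -0.32 in one method and 0.27 in the other.

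Bcl2l1 encodes BCL-XL, and the table does not separate it from its short death-promoting isoform BCL-XS. It was at 35.8, 42.0 and 33.2 TPM after rRNA depletion and at 36.4, 76.4 and 37.4 TPM with poly(A) enrichment. PD8 was the highest group in both methods without overlap, by a far wider margin in the poly(A) library. The difference was 0.64 ± 0.23 for PD8 against PD2 (adjusted p = 0.223) and -0.67 ± 0.23 for PD14 against PD8 (adjusted p = 0.866), and -0.04 ± 0.23 over the whole span (95% interval -0.62 to 0.55). Without the PD8 poly(A) library the 2 steps were 0.26 and -0.30, and without the rRNA-depleted one 1.01 and -1.05.

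Bcl2l2, which encodes BCL-W, was at 16.1, 16.6 and 21.2 TPM after rRNA depletion and at 23.6, 25.2 and 30.1 TPM with poly(A) enrichment. PD14 was the highest group within each method, but the methods lay so far apart that the groups overlapped. The difference between PD14 and PD2 was 0.36 ± 0.15 (95% interval -0.03 to 0.74, adjusted p = 0.178), with 0.38 and 0.34 in the respective methods. Bcl2l2 shares 594 exonic bases with Gm20521, a gene on the same strand at 2.68 to 6.67 TPM, so reads can be divided between them.

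The BH3-only genes had no common direction. Bid encodes a protein that caspase-8 cuts and that links death receptors to mitochondria (chromosome 6, 120891930 to 120916853). Bid was at 27.9, 46.5 and 35.1 TPM after rRNA depletion and at 44.3, 65.3 and 66.3 TPM with poly(A) enrichment. Both PD8 libraries lay above both PD2 libraries, and PD14 overlapped with each of the other groups. The difference between PD8 and PD2 was 0.63 ± 0.15 (95% interval 0.24 to 1.03, adjusted p = 0.133), and that between PD14 and PD2 was 0.45 ± 0.15 (95% interval 0.05 to 0.84, adjusted p = 0.122). Bid shares 628 exonic bases with Bcl2l13, itself a BCL2 family gene at 15.4 to 25.7 TPM on the opposite strand, so its values are uncertain where strand was not used.

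Pmaip1 encodes NOXA, which binds mainly MCL1. It was at 48.0, 36.4 and 19.5 TPM after rRNA depletion and at 93.4, 124 and 101 TPM with poly(A) enrichment. The first series was lowest at PD14 and the second highest at PD8, and the methods lay so far apart that the groups overlapped throughout. The fitted difference between PD14 and PD2 was -0.57 ± 0.32 (95% interval -1.39 to 0.24, adjusted p = 0.279), made of -1.25 in the depletion pair and 0.11 in the enrichment pair. It passed without the PD2 poly(A) library (-1.11, adjusted p = 0.0363) and was -0.03 without the PD2 rRNA-depleted library, with adjusted p from 0.0363 to 0.942 over the 14 alternatives. The summed leukocyte markers and Pmaip1 were both lower at PD14 than at PD2 after rRNA depletion and both higher with poly(A) enrichment. Lyz2, a lysozyme gene of myeloid cells, made up most of that poly(A) sum, at 337 TPM at PD2 and 569 TPM at PD14. Of the 11 leukocyte markers tested, 10 were lower at PD14 after rRNA depletion, all but Cd14 (0.48), and 8 were higher with poly(A) enrichment, where the complement genes C1qa (-0.71), C1qb (-0.70) and C1qc (-0.68) were lower. The relation of these markers to Pmaip1 was not tested.

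Bcl2l11 encodes BIM, a strong activator that binds all prosurvival members. Its TPM were 25.6, 8.45 and 22.4 after rRNA depletion and 10.3, 9.59 and 12.0 with poly(A) enrichment. PD8 was the lowest group in both methods without overlap, almost wholly through the rRNA-depleted libraries. The difference was -0.79 ± 0.36 for PD8 against PD2 (adjusted p = 0.296) and 0.80 ± 0.36 for PD14 against PD8 (adjusted p = 0.892). Over the whole span it was 0.01 ± 0.36, with the widest interval of the 10 members, -0.90 to 0.92. Without the PD8 rRNA-depleted library the 2 steps were -0.19 and 0.20.

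Bbc3, which encodes PUMA, had the smallest standard error. It was at 44.3, 51.7 and 45.8 TPM after rRNA depletion and at 51.9, 61.8 and 51.3 TPM with poly(A) enrichment. PD8 was highest in each method, and only PD14 and PD8 did not overlap. The difference between PD14 and PD2 was 0.02 ± 0.12, with the narrowest interval of the members, -0.30 to 0.33 (adjusted p = 0.946).

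The effectors differed from each other in level more than between groups. Bax (chromosome 7, 45461697 to 45466898) encodes a mostly cytosolic protein that moves to mitochondria when activated. Its TPM were 198, 185 and 166 after rRNA depletion and 293, 333 and 337 with poly(A) enrichment. The first series was lowest at PD14 and the second highest at PD14. The fitted difference was -0.03 ± 0.15 (95% interval -0.41 to 0.35, adjusted p = 0.918). Bak1, whose protein resides on the outer membrane, was at 54.3, 48.3 and 33.5 TPM and at 73.4, 71.7 and 63.5 TPM in the respective methods. It was lowest at PD14 in both, with a fitted difference from PD2 of -0.44 ± 0.16 (95% interval -0.85 to -0.04, adjusted p = 0.132). Bax shares 192 exonic bases with Gm45808 on the same strand, and Bak1 shares 437 and 177 with gene models named Ggnbp1 on the opposite strand.

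**Figure D2:**
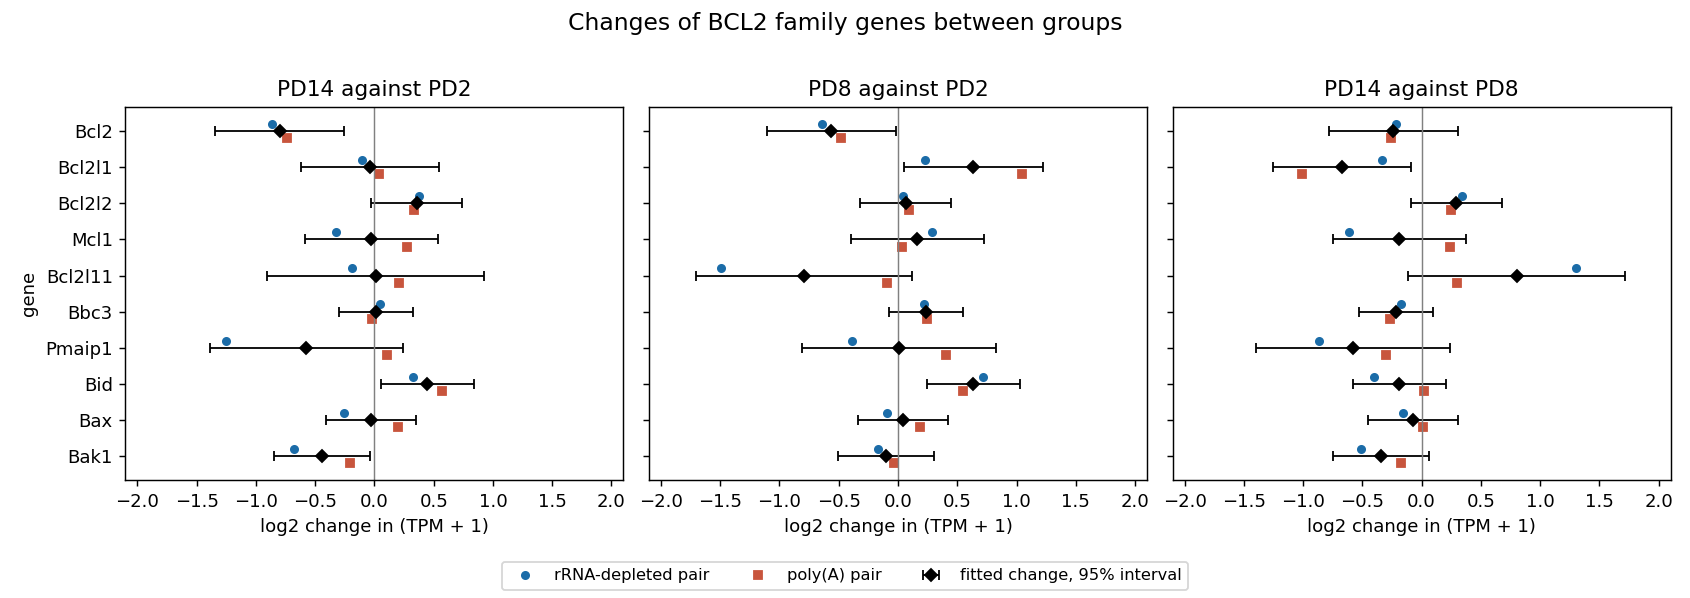
Fitted log2(TPM + 1) change with its 95% interval (diamonds), and the change in the rRNA-depleted pair (circles) and the poly(A) pair (squares), for PD14 against PD2, PD8 against PD2 and PD14 against PD8. For PD14 against PD2 only the Bcl2 (-1.34 to -0.26), Bid (0.05 to 0.84) and Bak1 (-0.85 to -0.04) intervals leave out 0, and none of these passed after adjustment.

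Counted over the members, 1 of 10 had groups without overlap for PD14 against PD2 (Bcl2; 38.2% of all genes tested), 4 for PD8 against PD2 (Bcl2, Bcl2l1, Bcl2l11 and Bid; 33.1%) and 3 for PD14 against PD8 (Bcl2l1, Bcl2l11 and Bbc3; 15.2%). The sign of the difference between PD14 and PD2 was the same in both library methods for 4 members (Bcl2, Bcl2l2, Bid and Bak1), beside 69.6% of all genes tested. It was the same for 8 members between PD8 and PD2 (69.4% of all genes) and for 7 between PD14 and PD8 (52.7%). The test that the late step differed from the early step called 0 members and 0 genes in limma. At an unadjusted p below 0.05 it gave 4.25% of genes and 3 members, namely Bcl2l1 (-1.31 ± 0.40), Bid (-0.82 ± 0.27) and Bcl2l11 (1.59 ± 0.62), all with adjusted p = 0.9996.

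Library method separated 6 to 9 of the 10 members more than passage did, depending on the comparison. Only for PD14 against PD2 did the members exceed the share of all genes tested. The absolute mean difference between methods exceeded the absolute difference between PD14 and PD2 in 9 of 10 members, all but Bcl2, and in 56.6% of all genes tested. It exceeded the difference between PD8 and PD2 in 6 members (65% of all genes), not in Bcl2, Bcl2l1, Bcl2l11 or Bbc3, and that between PD14 and PD8 in 7 (77.5%), not in Bcl2l1, Bcl2l11 or Bbc3. In all 3 groups 7 members were higher in the poly(A) library (32.1% of all genes tested) and 2, Bcl2 and Mcl1, in the rRNA-depleted one (37.2%). Bcl2l11 was mixed. Pmaip1 had the widest gap, with log2 differences of 0.95, 1.74 and 2.31 at PD2, PD8 and PD14 and a mean of 106 against 34.6 TPM. For Mcl1 the same differences were -0.61, -0.86 and -0.01. With 1 library per method and group these gaps have no replicate check.

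**Figure D3:**
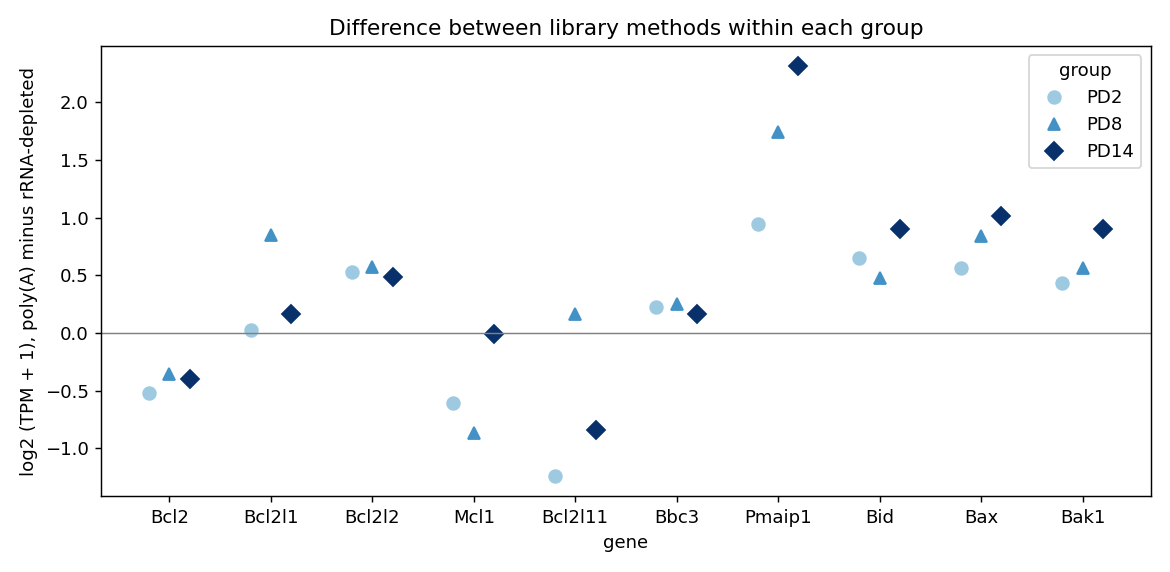
Log2(TPM + 1) of the poly(A) library minus that of the rRNA-depleted library for each member, at PD2 (circles), PD8 (triangles) and PD14 (diamonds). Bcl2 and Mcl1 lie at or below 0 in every group, and Pmaip1 reaches 2.31 at PD14.

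Ratios within a library set the RNA levels of the roles side by side and are given without a test. They do not measure a balance of the proteins. The TPM ratio of Bax to Bcl2 at PD2, PD8 and PD14 was 21.5, 33.5 and 35.9 after rRNA depletion and 47.9, 81.3 and 103 with poly(A) enrichment. It was lowest at PD2 in both methods, but PD2 in one method overlapped with the later groups in the other. The ratio of Bax to Mcl1 was 0.988, 0.755 and 1.04 and, with poly(A) enrichment, 2.23, 2.48 and 2.12, with no common order. Mcl1 made up 76.6%, 79.3% and 73.0% of the summed prosurvival TPM after rRNA depletion and 66.5%, 56.0% and 69.2% with poly(A) enrichment, and Bcl2 at most 3.52% in any. Bcl2l1 took 31.8% in the PD8 poly(A) library and 13.6% to 18.4% in the others. Both effectors together had 0.755 to 0.965 times the prosurvival TPM after rRNA depletion and 1.69 to 1.85 times with poly(A) enrichment.

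**Figure D4:**
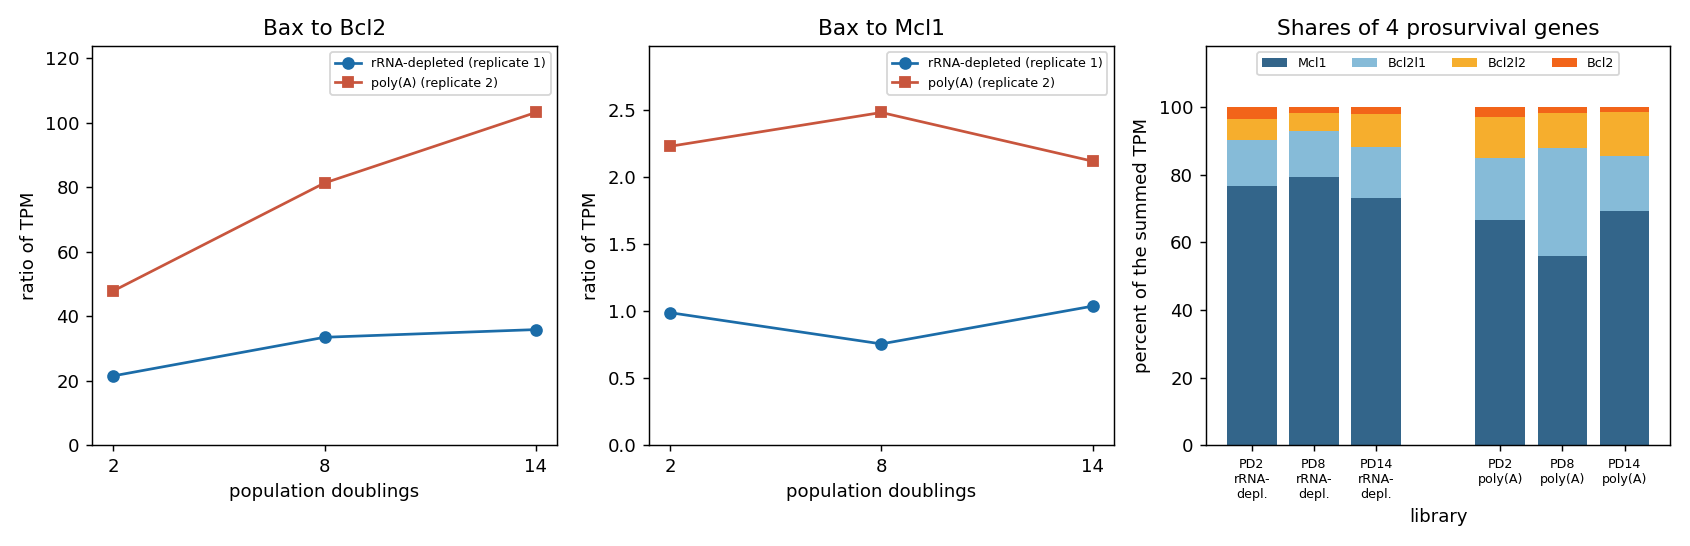
TPM ratios of Bax to Bcl2 (left) and Bax to Mcl1 (middle) against population doublings, and the share of each of 4 prosurvival genes in their summed TPM per library (right). Each point or bar is 1 library. The Bax to Bcl2 ratio is lowest at PD2 in both methods, and Mcl1 holds 56.0% to 79.3% of the prosurvival sum.

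Of 16 other BCL2 family genes, 8 passed the filter on low values and 0 were called for PD14 against PD2 in limma, with a median difference of -0.22. Bok, an effector-like member, was nearest, at -1.06 ± 0.23 (adjusted p = 0.0506). Its TPM were 11.4, 9.28 and 6.02 after rRNA depletion and 28.3, 14.0 and 11.0 with poly(A) enrichment, lowest at PD14 in both. Bok passed in 5 of 14 alternatives, with adjusted p from 0.0284 to 0.544. The BH3-only gene Bad was at 0.47 ± 0.16 (adjusted p = 0.120) and Bmf at -0.23 ± 0.34 (adjusted p = 0.670). The mitophagy receptors Bnip3 and Bnip3l were at 0.64 ± 0.18 (adjusted p = 0.0786) and 0.41 ± 0.22 (adjusted p = 0.267). Bcl2l12 was at -0.21 ± 0.21 (adjusted p = 0.530), Bcl2l13 at -0.32 ± 0.30 (adjusted p = 0.497) and Bcl2a1b, a prosurvival gene of leukocytes with near-identical copies, at -0.48 ± 0.30 (adjusted p = 0.328) with at most 2.18 TPM. Bcl2a1a, Bcl2a1c, Bcl2a1d, Bcl2l10, Bcl2l14, Bcl2l15, Bik and Hrk stayed under 1 TPM in every library, Bcl2a1c at 0 in all.

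Downstream of the mitochondrion, 2 of 8 apoptosome and caspase genes fell between PD2 and PD14 and 0 rose (4.77% of all genes tested fell and 6.41% rose), with a median of -0.14 for the list. Cycs, which encodes cytochrome c, the protein released through the pores, fell by 0.85 ± 0.14 on the log2 scale (adjusted p = 0.0317). Its TPM were 55.3, 37.1 and 27.2 after rRNA depletion and 84.1, 57.9 and 51.4 with poly(A) enrichment. Within each method PD2 was highest and PD14 lowest, and both PD14 libraries lay below both PD2 libraries. The call of Cycs held in 6 of 14 alternatives. It was lost without any library except that of PD2 poly(A), at -0.71 to -0.99, without the replicate block, without the filter and without the trend. Cycs has processed pseudogenes that can take some of its reads. Casp9, the initiator that the apoptosome activates, was at 0.51 ± 0.62 (adjusted p = 0.605), with 1.75 in the depletion pair and -0.72 in the enrichment pair.

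Of 7 inhibitors of apoptosis and their antagonists 0 were called in limma (median 0.12). Xiap, a direct caspase inhibitor, was at 0.86 ± 0.30 (adjusted p = 0.122), with 0.48 in the depletion pair and 1.24 in the enrichment pair. Its lowest value was 8.92 TPM, in the PD2 poly(A) library, and without that library the difference was 0.38. Birc6 was at -0.17 ± 0.15 (adjusted p = 0.464) and Sept4 at 0.18 ± 0.37 (adjusted p = 0.767). Of 8 genes of outer membrane channels and release 0 were called in limma (median -0.28, beside 0.06 over all genes tested). All 8 fitted values were negative, the nearest to 0 at -0.07 (95% interval -0.45 to 0.30). Aifm1, a flavoprotein of the intermembrane space, was at -0.58 ± 0.13 (adjusted p = 0.0545), Vdac2, the channel that holds BAK, at -0.40 ± 0.13 (adjusted p = 0.105) and the fission gene Dnm1l at -0.39 ± 0.20 (adjusted p = 0.243). Of 11 regulators of BCL2 family transcription or turnover 0 were called (median -0.08; limma). Trp53, which encodes p53, was at -0.54 ± 0.19 (adjusted p = 0.128), Foxo1 at 0.52 ± 0.21 (adjusted p = 0.171) and the 14-3-3 gene Ywhae at -0.46 ± 0.13 (adjusted p = 0.0767). For PD8 against PD2 and PD14 against PD8 the other BCL2 family genes and these 4 lists had 0 calls in limma.

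Among all tested genes with a name other than a predicted one, those nearest to Bcl2 over the 6 libraries, after subtraction of each method's mean, were Pdap1, Rell1 and Zhx2, with root mean square differences of 0.023, 0.027 and 0.027 on the log2 scale. Zhx2 went from 15.0 to 9.36 and 8.18 TPM and from 10.2 to 6.69 and 5.39 TPM. Nearest to Pmaip1 were Pkm, Coro1a and Dok1, at 0.099, 0.112 and 0.119. Pkm was at 1261, 923 and 582 TPM after rRNA depletion and at 2176, 2402 and 2053 TPM with poly(A) enrichment. The order of the groups after rRNA depletion was that of Pmaip1; with poly(A) enrichment PD8 was highest for both genes and the lowest group differed.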

How the data were processed

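RNA from 6 libraries of cultured mouse embryonic fibroblasts was analysed from 1 table of TPM per gene that the authors deposited. Per the submitters' processing notes, bcl2fastq, cutadapt 1.14, HISAT2 2.0.5 and StringTie 1.3.1c were used with mm10, without the role of each. The gene annotation is not given in the sources used here. Gene positions and exon overlaps came from GENCODE M21, promoter windows from RefSeq.

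Values were analysed as log2(TPM + 1), which understates changes of low genes, in R 4.3.3 with limma 3.58.1. Genes had to reach a TPM of 1 in 2 or more libraries, which 13332 did, all 10 members among them. The model had a term per group and replicate number as a block, with a mean-variance trend (2 residual and 3.22 prior degrees of freedom). The block was used because the labels give each number its own library method. Same-numbered libraries deviated together from their group means (correlations across genes 0.664 to 0.854). Two-sided p-values had Benjamini-Hochberg adjustment over all genes tested, with a threshold of 0.05. The script was tested on simulated data.

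The members, lists and rule for naming genes were chosen with earlier results of these data known. Named were all members, the other BCL2 family genes and, of 4 further lists, the genes past the threshold, or the largest changes to make 3. Also named were the 3 genes nearest in pattern to the 2 members with the largest PD14 to PD2 difference. Alternatives were pseudocounts of 0.1 and 0.5, no filter or a TPM of 5, quantile normalization, rescaling without mitochondrial genes, no block, no trend, and leaving out each library. A few of the listed genes, called or not, are not reported here by name.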

Additional observations from a re-analysis of the deposited data

How the results depend on the processing

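No member's call was gained or lost in 12 of the 14 alternatives for PD14 against PD2. The count of members past the threshold became 1 under quantile normalization (Bcl2) and ranged from 0 to 1 with 1 library left out (Pmaip1, without PD2 poly(A)). It stayed 0 in the other comparisons under every alternative run in limma. Of 140 member values per comparison, 127, 132 and 137 kept their direction for PD14 against PD2, PD8 against PD2 and PD14 against PD8.

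Counts over all genes moved far more. For PD14 against PD2, 1490 became 404 without the filter, 938 without the trend and 0 with no replicate block, and 0 to 1804 with 1 library left out (0 without the PD14 rRNA-depleted library, 5 without the PD14 poly(A) library, 25 and 21 without those of PD8). For PD8 against PD2, 3 became 21 and 17 with pseudocounts of 0.1 and 0.5, 0 without the filter, without the trend, under quantile normalization and with no replicate block, and 0 to 641 with 1 library left out. For any difference, 195 became 0 without the filter, without the trend and with no replicate block, and 0 to 908 with 1 library left out. PD14 against PD8 ranged from 0 to 1 and the late minus the early step from 0 to 3. The cause was not tested. Quantile normalization made 46.9% of the PD14 calls higher, beside 57.3%.

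Signs turned only for values near 0 apart from left-out libraries. Under quantile normalization Bcl2l11 was at -0.094 and Bbc3 at -0.048 for PD14 against PD2, and Bcl2l2 at -0.0073 and Pmaip1 at -0.058 for PD8 against PD2. With rescaling without mitochondrial genes Bcl2l11, Bbc3 and, for PD8, Pmaip1 were at -0.020, -0.018 and -0.029. With 1 library left out, values that turned sign ranged, for PD14 against PD2, from -0.28 to 0.21 (Bcl2l1), -0.39 to 0.34 (Mcl1), -0.44 to 0.46 (Bcl2l11), -0.023 to 0.053 (Bbc3), -0.21 to 0.16 (Bax), -0.50 to 0.079 (Bcl2l12), -0.58 to 0.12 (Bmf), -0.65 to 1.68 (Casp9), -0.35 to 0.71 (Sept4) and -0.36 to 0.018 (Birc6). For PD8 against PD2 they ranged from -0.12 to 0.44 (Mcl1), -0.53 to 0.55 (Pmaip1), -0.14 to 0.23 (Bax) and -0.25 to 0.052 (Bak1), and for PD14 against PD8 from -0.55 to 0.18 (Mcl1) and -0.23 to 0.085 (Bax). A fit without 1 library leaves a group with 1 sample, assumed to vary like the others. TPM give no depth, so counting error is not known for any value.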
